A study of Arabidopsis thaliana with 6 samples.

Results

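The genes described here were higher in wild-type Arabidopsis thaliana seedlings on standard MS medium than in any of the other 3 RNA-seq libraries, apart from known copper genes. A gene was a member when its entry did not share its locus with another entry, when it stood at 5 FPKM (fragments counted per kilobase of transcript and corrected for library size) or more in wild type on MS, and when its FPKM + 1 there was at least 1.5 times that in each of the other 3 libraries. These conditions were met by 48 of the 15633 unshared entries at 5 FPKM or more (0.307%). The rule leaves out 10 copper genes, of which 8 met the conditions, so 40 of the 27052 entries in the files were members. The members were chosen by these FPKM values, so the ratios to wild type on MS are given as a description, with no test.

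The study measured transcripts in whole seedlings aged 7 days, grown at 22 °C under continuous white light, and the seeds of every group had been kept at 4 °C for 4 days beforehand. The 4 groups were Col-0 wild type and the spl7 mutant, each on MS or on MS with 5 µM added CuSO4, with 1 library per group. Chromatin bound by FLAG-SPL7 was measured with a FLAG antibody on MS, in seedlings transgenic for 35S:FLAG-SPL7 and, as a negative control, in spl7, and the single deposited list holds 1535 peaks. The 35S promoter drives strong expression in most plant cells, so the tagged protein was not under the SPL7 gene's own promoter, and the labels do not name the spl7 allele. SPL7 itself reached 107 FPKM in wild type on MS, 105 FPKM in wild type with copper, 20.2 FPKM in spl7 on MS and 20.7 FPKM in spl7 with copper.

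SPL7 belongs to the SBP-domain transcription factors, which bind DNA at a GTAC core. When copper is scarce, SPL7 is known to raise genes for copper uptake and for enzymes that work without copper, and microRNAs that lower transcripts of dispensable copper proteins. A transcript under that control is high in wild type on MS and low in wild type with added copper and in spl7 on either medium, which is the pattern the rule looks for.

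The FPKM of all entries summed to between 4383940 and 4694640 per library, and read depth is unknown. Between 7081 and 7228 entries were listed at 0 in a library. No group has a replicate, so the differences below cannot be set against a spread between replicates, and p-values were not computed. The 3 ratios of a gene share the library of wild type on MS, so they are not independent of each other. Wild type on MS had the fewest genes highest in it by this rule, at 40 (0.256% of unshared genes at 5 FPKM or more there). The count was 55 (0.350%) for wild type with copper and, in spl7, 85 (0.548%) on MS and 208 (1.33%) with copper. All these counts leave out the 10 copper genes, and with them kept the count for wild type on MS was 48. The leaf markers on the photosynthesis list were high in all libraries, with RBCS1A, a small subunit gene of Rubisco, at 80300 FPKM in wild type on MS. The 10 unshared root and root hair markers summed to between 625 and 649 FPKM per library and none was at 0.

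**Figure D1:**
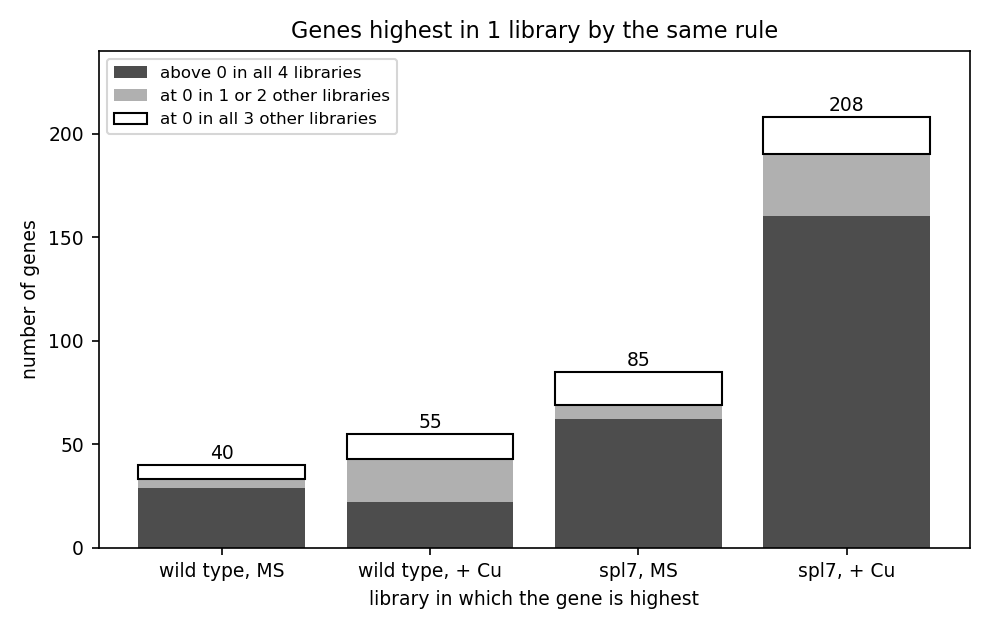
Number of genes (y axis) highest in each library (x axis) by the same rule, without the 10 copper genes, divided by how many other libraries list the gene at 0. Wild type on MS has 40 genes, the lowest count of the 4, and spl7 with copper has 208.

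The copper genes that the rule leaves out show the size of the pattern in known members of the pathway. FSD1, the iron superoxide dismutase that can stand in for copper enzymes, stood at 5647 FPKM in MS-grown wild type and at most at 14.0 FPKM elsewhere, a smallest ratio of 375. The transporter gene ZIP2 stood at 96.5 FPKM, the metal reductase gene FRO4 at 13.9 FPKM and AT1G71200 at 15.9 FPKM on MS in wild type, and all were listed at 0 in the other 3 libraries. The copper transporter COPT2 had a smallest ratio of 5.23, AT2G47010 one of 4.85, the copper chaperone CCH one of 4.16 and the metal-nicotianamine transporter YSL3 one of 2.28. FRO5 and UNE15 reached 4.54 and 4.49 FPKM in wild type on MS, under the 5 FPKM of the rule, and at 0 elsewhere. All 8 that met the rule had smallest ratios above 2, whereas 10 of the 40 members did.

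Most members were weakly expressed. Of the 40, 31 (77.5%) lay under 20 FPKM in wild type on MS, where 18.8% of all unshared genes at 5 FPKM or more lay. Their median was 11.0 FPKM, beside 69.0 FPKM over those genes, and their median locus length was 1443 bp, beside 2206 bp. Low genes met the rule more often: 33 of 2941 genes between 5 and 20 FPKM did (1.12%), copper genes included, and 6 of 6739 between 20 and 100 FPKM (0.0890%). From 500 FPKM upwards 4 of 1200 genes met it, and these were FSD1, CCH and the members CaS and MT1C. The 99th percentile of the smallest log2 ratio was 0.61 between 5 and 20 FPKM and 0.22 from 500 FPKM upwards, whereas the 1.5-fold limit is 0.58 on that scale.

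**Figure D2:**
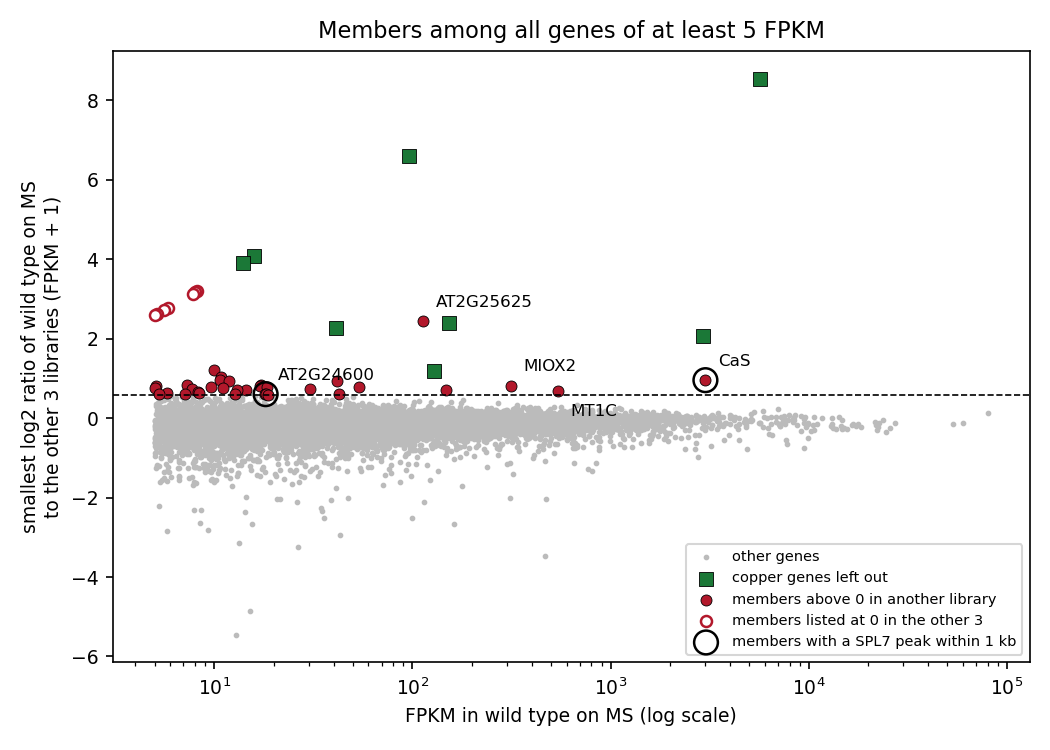
Smallest log2 ratio of wild type on MS to the other 3 libraries, with 1 added to each FPKM (y axis), against FPKM in wild type on MS on a log scale (x axis), for unshared genes of at least 5 FPKM. The dashed line is the 1.5-fold limit of the rule. The grey band of other genes narrows with level, CaS at 3010 FPKM and MT1C at 543 FPKM are the highest members, and AT2G25625 lies among the copper genes.

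Of the members above 0 in all 4 libraries, AT2G25625 had the largest ratio (TAIR10 chromosome 2, 10906428 to 10907288), and the files and the gene table give it no name. It reached 114 FPKM in wild type on MS, 4.90 FPKM in wild type with copper, 2.77 FPKM in spl7 on MS and 20.0 FPKM in spl7 with copper. Its smallest ratio, 5.45, lay between those of COPT2 and UNE15 among the copper genes. Its levels elsewhere were less alike than those of COPT2, whose other 3 values ran from 19.8 to 28.5 FPKM. The nearest SPL7 peak lay 3974 bp from AT2G25625. Its neighbour on one side, DBP1, stood between 49.1 and 66.02 FPKM in the 4 libraries, and BGLU14 on the other side was listed at 0 in all of them.

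CaS, the calcium-sensing receptor of the thylakoid membrane, was the most abundant member (AT5G23060; chromosome 5, 7736590 to 7738535). It reached 3010 FPKM in wild type on MS, 1542 FPKM in wild type with copper, 1550 FPKM in spl7 on MS and 1408 FPKM in spl7 with copper. The other 3 values lay within 0.14 of each other on the log2 scale, and wild type on MS lay 0.96 above the highest of them. CaS works in calcium signalling of guard cells and chloroplasts. The 16 unshared genes on the list of photosystem antenna and Rubisco genes, which act in the same organelle, held no member, and none was 1.5-fold above or below any other library in wild type on MS. TET12 (AT5G23030), which codes for a membrane protein of the tetraspanin family, lay 8781 bp from CaS and was the only other member within 10 kb of a member. TET12 stood at 7.69 FPKM in MS-grown wild type and between 3.79 and 4.27 FPKM elsewhere. AAE17, which lies between them, stood at 205 FPKM in MS-grown wild type and was higher in the other 3 libraries, from 219 to 290 FPKM.

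MT1C codes for a metallothionein, a small cysteine-rich protein that binds copper (AT1G07610; chromosome 1, 2341542 to 2342123). It reached 543 FPKM in wild type on MS, 333 FPKM in wild type with copper, 340 FPKM in spl7 on MS and 276 FPKM in spl7 with copper. MT2A, another metallothionein gene, went the other way, at 2466 FPKM in MS-grown wild type and between 2985 and 3445 FPKM elsewhere. In wild type on MS, wild type with copper, spl7 on MS and spl7 with copper, MT2B stood at 16490, 15644, 18687 and 16519 FPKM. MT3 stood at 11627, 11630, 14651 and 12134 FPKM in the same order, and both genes share their loci with other entries. MT1A and MT1B were listed at 0 in all 4 libraries, and MT1A is a close copy of MT1C. Only uniquely mapped reads were counted, so the division of reads between MT1A and MT1C is uncertain.

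MIOX2, a myo-inositol oxygenase that makes glucuronic acid for cell wall sugars, had a graded order (AT2G19800; chromosome 2, 8530896 to 8533508). It reached 313 FPKM in wild type on MS, 178 FPKM in wild type with copper, 134 FPKM in spl7 on MS and 99.03 FPKM in spl7 with copper. MIOX1, a gene of the same family, stood at 23.01 and 20.6 FPKM on MS in wild type and spl7 and at 46.7 and 44.5 FPKM with copper, higher with copper in both genotypes. AT4G15700, unnamed in the files, stood at 148, 89.9, 82.9 and 53.4 FPKM in the same order of libraries. Its neighbour AT4G15690, 2472 bp away, stood at 124, 76.1, 93.5 and 52.6 FPKM, a smallest ratio of 1.32.

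**Figure D3:**
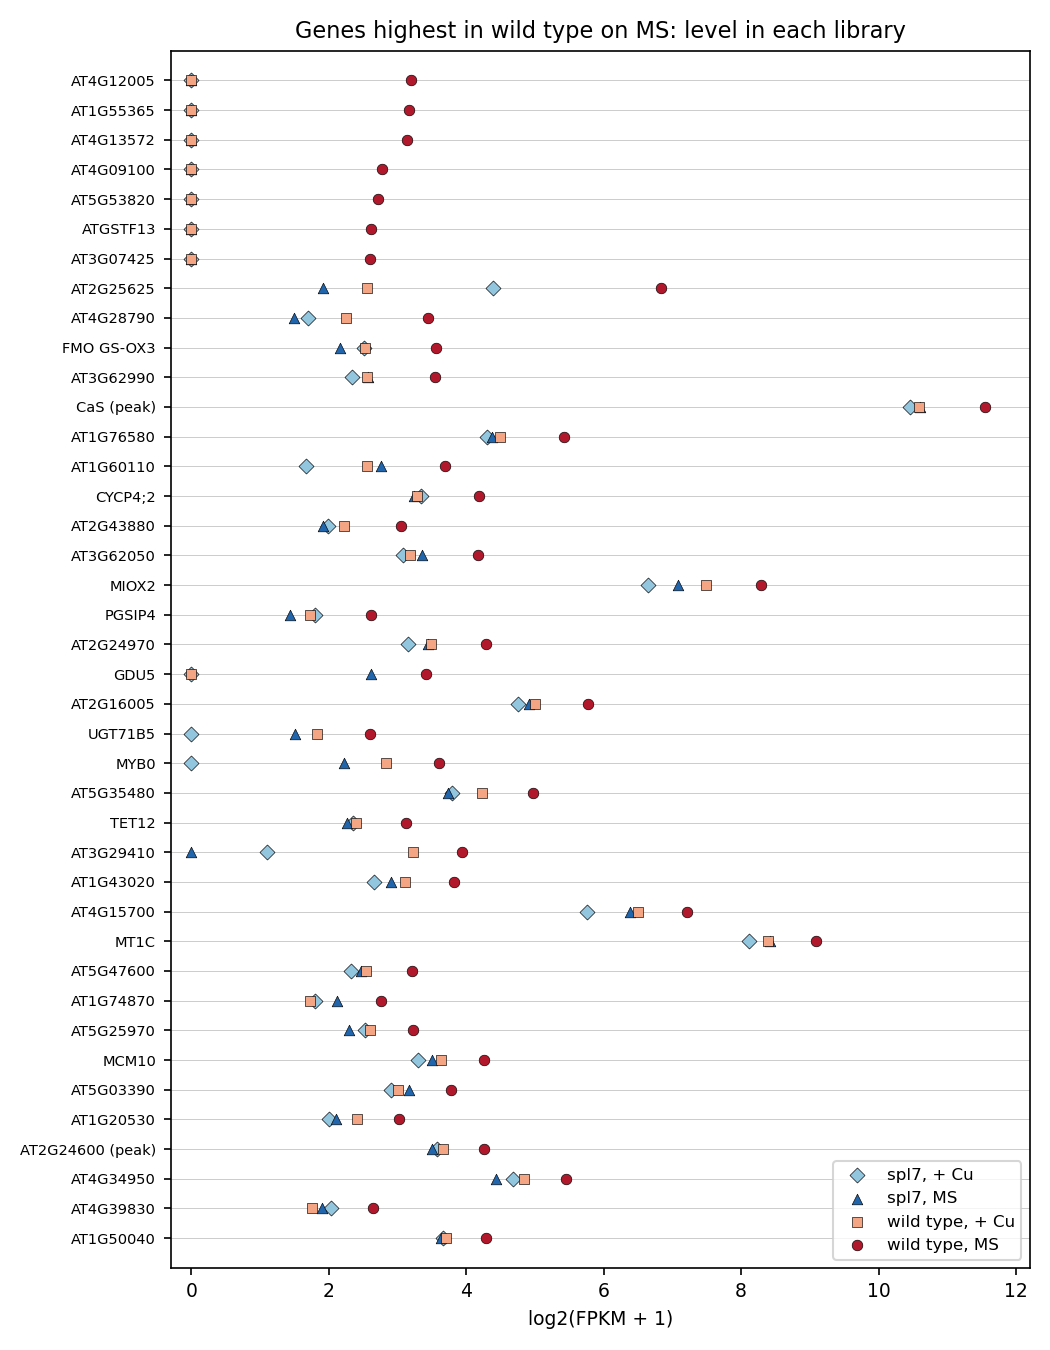
Level of each of the 40 members in each library as log2(FPKM + 1) (x axis), with genes (y axis) ordered by the smallest ratio. Circles are wild type on MS, squares wild type with copper, triangles spl7 on MS and diamonds spl7 with copper. The top 7 genes are listed at 0 in the other 3 libraries, and the values of the other 3 libraries of CaS lie almost on each other.

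Among the named members of moderate and low level, some have known roles in growth and defence. FMO GS-OX3, a flavin monooxygenase that oxidises the sulfur of glucosinolate side chains, stood at 10.9 FPKM in MS-grown wild type and between 3.49 and 4.80 FPKM elsewhere. Of 4 unshared FMO GS-OX genes at 5 FPKM or more, it was the single one past 1.5-fold over each of the other 3 libraries. Among the 3 remaining genes, 1 was highest in wild type on MS by any ratio, FMO GS-OX1, at 7.58 FPKM there and between 4.22 and 6.73 FPKM elsewhere. FMO GS-OX4 stood at 108 FPKM in MS-grown wild type and 128 FPKM in spl7 with copper. CYCP4;2, a P-type cyclin, stood at 17.2 FPKM in MS-grown wild type and between 8.50 and 9.13 FPKM elsewhere. Of the other CYCP4 genes, CYCP4;1 stood at 33.4 FPKM in MS-grown wild type and between 24.04 and 31.2 FPKM elsewhere, and CYCP4;3 at 4.35 FPKM and at most at 3.23 FPKM elsewhere.

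MCM10, a factor that acts in starting DNA replication, reached 18.1 FPKM in wild type on MS, 11.4 FPKM in wild type with copper, 10.4 FPKM in spl7 on MS and 8.83 FPKM in spl7 with copper. MCM2, MCM3, MCM4, MCM5 and MCM6, subunits of the replicative helicase, were each highest in wild type on MS. The smallest ratio was 1.15 for MCM2, 1.11 for MCM4, 1.18 for MCM5 and 1.22 for MCM6, and MCM3 stood at 62.7 FPKM there and at most at 49.8 FPKM elsewhere. Of all unshared genes at 5 FPKM or more, 26.9% were highest in wild type on MS by any ratio, beside 5 of the 6 such MCM genes other than MCM10, a family looked at because MCM10 was a member. MCM9 was highest in spl7 on MS, at 19.5 FPKM. MCM10 and the families named beside MT1C, MIOX2, FMO GS-OX3 and CYCP4;2 were chosen after their values were seen.

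MYB0, also called GL1, the MYB factor that starts trichome formation, was the single member among the matched genes of the 17 gene lists (AT3G27920, chromosome 3, 10361945 to 10363506). Of 214 places on these lists 199 were matched, with 9 of 10 among the SBP-domain relatives of SPL7. A member under an unmatched list name would therefore be missed. Of the members, 28 carried a locus code only, so an SBP-domain relative of SPL7 among them is not excluded. MYB0 reached 11.1 FPKM in wild type on MS, 6.15 FPKM in wild type with copper and 3.65 FPKM in spl7 on MS, and was listed at 0 in spl7 with copper. In whole seedlings, fewer cells of a type and less RNA per cell cannot be told apart. Of the 5 unshared trichome genes at 5 FPKM or more, only MYB0 was past 1.5-fold over any other library, and the median log2 ratio of these 5 was 0.00 to wild type with copper, 0.40 to spl7 on MS and -0.05 to spl7 with copper, beside 0.00, 0.00 and 0.03 over all such genes. GL2, a homeodomain factor of trichome development that shares its locus with another entry, reached 31.03 FPKM in wild type on MS, 31.6 FPKM in wild type with copper, 8.95 FPKM in spl7 on MS and 7.98 FPKM in spl7 with copper. GL3, the bHLH partner of MYB0, stood at 4.65 FPKM in MS-grown wild type and between 2.31 and 3.68 FPKM elsewhere, and TTG1, the WD40 protein of that complex, was lower in wild type on MS (187 FPKM) than in spl7 on MS (221 FPKM).

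Genes listed at 0 in the other 3 libraries made up 7 of the members. They stood between 5.05 and 8.22 FPKM in MS-grown wild type and had short loci of 381 to 1199 bp, and a value at 0 can be a failed estimate. AT4G12005 stood at 8.22 FPKM, AT1G55365 at 7.97 FPKM, AT4G13572 at 7.79 FPKM, AT4G09100 at 5.83 FPKM and AT5G53820 at 5.56 FPKM. The others were AT3G07425 at 5.05 FPKM and ATGSTF13, a phi-class glutathione transferase, at 5.13 FPKM. The counts of genes listed at 0 in all but the highest library were 12 for wild type with copper and, in spl7, 16 on MS and 18 with copper, so such genes were not particular to wild type on MS. ATGSTF13 was the single one of 10 unshared phi-class genes at 5 FPKM or more to be highest in wild type on MS by any ratio.

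AT4G13572 was the only member within 10 kb of a left-out copper gene, at 7057 bp from UNE15 (chromosome 4, 7887440 to 7888638). In the gene order of the RefSeq table, MIR857 and MIR397b, microRNAs that target laccase transcripts and are known to respond to copper, precede UNE15, and HTA4, a histone H2A gene, lies between UNE15 and AT4G13572. HTA4 reached 5.61 FPKM in wild type on MS, 3.79 FPKM in wild type with copper and 3.77 FPKM in spl7 with copper, and was listed at 0 in spl7 on MS. AT4G13572 was chosen for being highest in wild type on MS, and UNE15 was left out as a known copper gene. HTA4 was highest there as well, at a smallest ratio of 1.38 and a low level. By any ratio, 26.9% of all unshared genes at 5 FPKM or more were highest in wild type on MS. Nothing is therefore read from the position of these genes. The nearest SPL7 peak lay 29534 bp from AT4G13572.

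A further 4 members were listed at 0 in 1 or 2 of the other libraries, MYB0 among them. GDU5, of the glutamine dumper family linked to amino acid export, stood at 9.63 FPKM in MS-grown wild type and 5.16 FPKM in spl7 on MS and was listed at 0 with copper in both genotypes. AT3G29410 reached 14.4 FPKM in wild type on MS, 8.36 FPKM in wild type with copper and 1.14 FPKM in spl7 with copper, and was listed at 0 in spl7 on MS. UGT71B5, a glucosyltransferase, stood at 5.05, 2.56 and 1.85 FPKM in wild type on MS, wild type with copper and spl7 on MS, and was listed at 0 in spl7 with copper. These genes had their lower values in different libraries.

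The remaining members of the largest ratios were AT4G28790, AT3G62990, AT1G76580, AT1G60110, AT2G43880 and AT3G62050, none of them named in the files. AT4G28790 stood at 9.94 FPKM in MS-grown wild type and between 1.83 and 3.74 FPKM elsewhere. AT1G76580 reached 41.9 FPKM in wild type on MS, 21.4 FPKM in wild type with copper, 19.8 FPKM in spl7 on MS and 18.8 FPKM in spl7 with copper, a narrow range of other values. AT3G62990, AT1G60110, AT2G43880 and AT3G62050 stood between 7.27 and 17.01 FPKM in wild type on MS, with smallest ratios of 1.96, 1.91, 1.77 and 1.75. PGSIP4, also called GUX4, of the family that adds glucuronic acid to xylan, stood at 5.11 FPKM in MS-grown wild type and between 1.70 and 2.50 FPKM elsewhere. AT5G35480 stood at 30.5 FPKM in MS-grown wild type and between 12.3 and 17.8 FPKM elsewhere, and MRU1, 259 bp away, stood at 17.2, 6.67, 11.7 and 5.88 FPKM in wild type on MS, wild type with copper, spl7 on MS and spl7 with copper. The labels name no strand-specific kit, and reads of such close genes may not be separable.

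The last 11 members had smallest ratios from 1.505 to 1.73. They were AT2G24970, AT2G16005, AT1G43020, AT5G47600, AT1G74870, AT5G25970, AT5G03390, AT1G20530, AT4G34950, AT4G39830 and AT1G50040. AT2G16005 was the most abundant of them, at 53.8 FPKM in MS-grown wild type and between 26.1 and 31.1 FPKM elsewhere. The members just inside the limit were AT1G50040 (1.505), AT4G39830 (1.52) and AT4G34950 (1.52). Just outside it lay AT5G27440 (1.49), MIM (1.48) and MAM1 (1.48), the last a methylthioalkylmalate synthase of glucosinolate synthesis that reached 43.6 FPKM in wild type on MS, 29.2 FPKM in wild type with copper and 15.5 FPKM in spl7 on MS.

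In wild type on MS, 13 members were at least 2-fold above wild type with copper (all genes 0.296%), 19 above spl7 on MS (1.08%) and 27 above spl7 with copper (0.928%); these contrasts chose the members, and nothing is read from the shares. Among the 29 members above 0 in all libraries, wild type with copper was the highest of the other 3 libraries for 18 (62.1%), spl7 on MS for 7 and spl7 with copper for 4. Over all unshared genes at 5 FPKM or more and above 0 in all libraries, wild type with copper was the highest of these 3 for 38.4%. The rule was met least often against wild type with copper, over which 1.03% of genes were 1.5-fold higher in wild type on MS, beside 3.18% over spl7 on MS and 2.9% over spl7 with copper. For 25 of the 29 members the smallest log2 ratio exceeded the log2 range of the other 3 libraries. The median of this range was 0.31 for the members and 0.23 for all such genes. The rule itself holds the smallest ratio of every member at 1.5-fold or more. The selection therefore favoured this count of 25, and nothing is read from it.

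The ratio of spl7 with copper to spl7 on MS was not part of the rule, although the rule bounds both libraries from above. Of the 19 members at 5 FPKM or more in either of the 2 libraries, 1 was at least 1.5-fold higher with copper (all genes 4.47%) and 3 were at least 1.5-fold lower (all genes 1.9%). The higher one was AT2G25625, at a log2 ratio of 2.48. The lower ones were GDU5 at -2.62, where spl7 with copper was listed at 0, AT1G60110 at -1.08 and AT4G15700 at -0.63. The median over the 19 was -0.21, beside -0.03 over all genes.

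**Figure D4:**
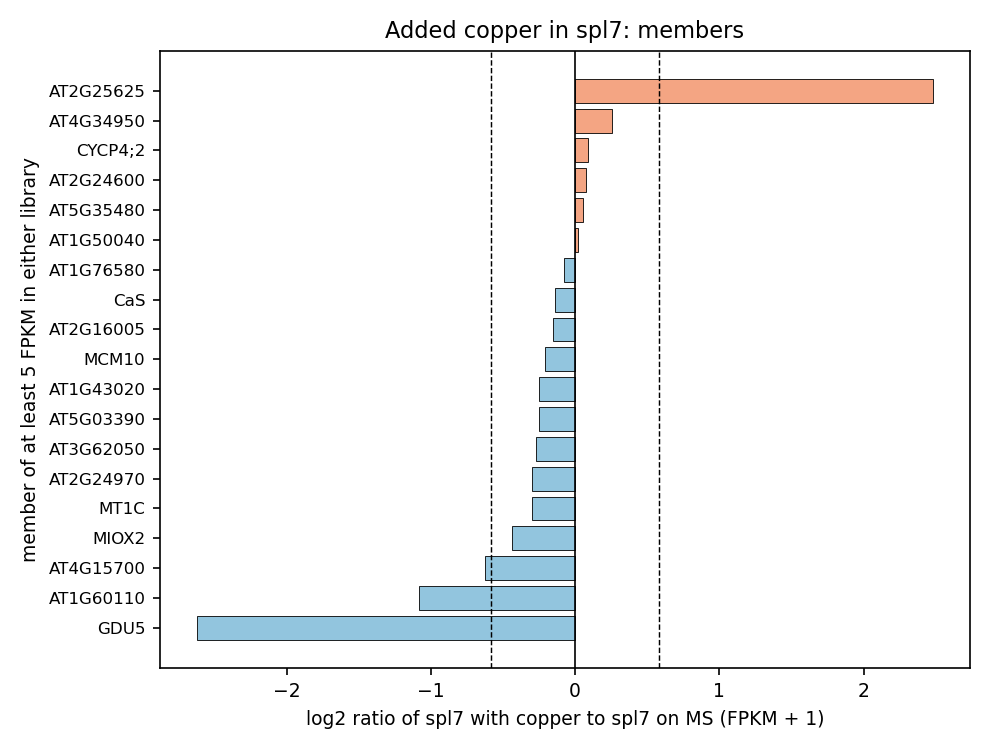
Log2 ratio of spl7 with copper to spl7 on MS, with 1 added to each FPKM (x axis), for the 19 members (y axis) of at least 5 FPKM in either library. Dashed lines mark 1.5-fold. AT2G25625 lies at 2.48 and GDU5, listed at 0 with copper, at -2.62, and 15 members lie within 1.5-fold.

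SPL7 peaks were then set beside the members. A peak lay within 1 kb of 2 of the 40 members (5.0%), CaS and AT2G24600, beside 7.84% of all unshared genes at 5 FPKM or more. The peak at CaS covered 7738095 to 7738501 of chromosome 5, inside the gene's locus, and its score of 281 in the authors' list ranked 582 of 1535. The peak at AT2G24600 (chromosome 2, 10452116 to 10454524) covered 10454792 to 10455171, 268 bp outside the locus, with a score of 221 and a rank of 778. AT2G24600, unnamed in the files, reached 18.2 FPKM in wild type on MS, 11.6 FPKM in wild type with copper, 10.4 FPKM in spl7 on MS and 11.0 FPKM in spl7 with copper, a smallest ratio of 1.52 that was close to the limit. Neither peak lay within 1 kb of another entry of the files.

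The share of genes with a peak varied with expression level. It was 2.69% of genes between 5 and 20 FPKM, where 1 of 31 members had a peak, and 3.92% between 20 and 100 FPKM, where 0 of 4 members did. It was 8.02% between 100 and 500 FPKM, where 0 of 3 members did, and 41.8% from 500 FPKM upwards, where CaS but not MT1C did. On the photosynthesis list, none of whose genes was 1.5-fold above another library in wild type on MS, all 16 unshared genes had a peak. The part of expression level in the peak at CaS was not tested. By the same rule, 7.27% of the genes highest in wild type with copper, 3.53% of those highest in spl7 on MS and 1.44% of those highest in spl7 with copper had a peak.

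**Figure D5:**
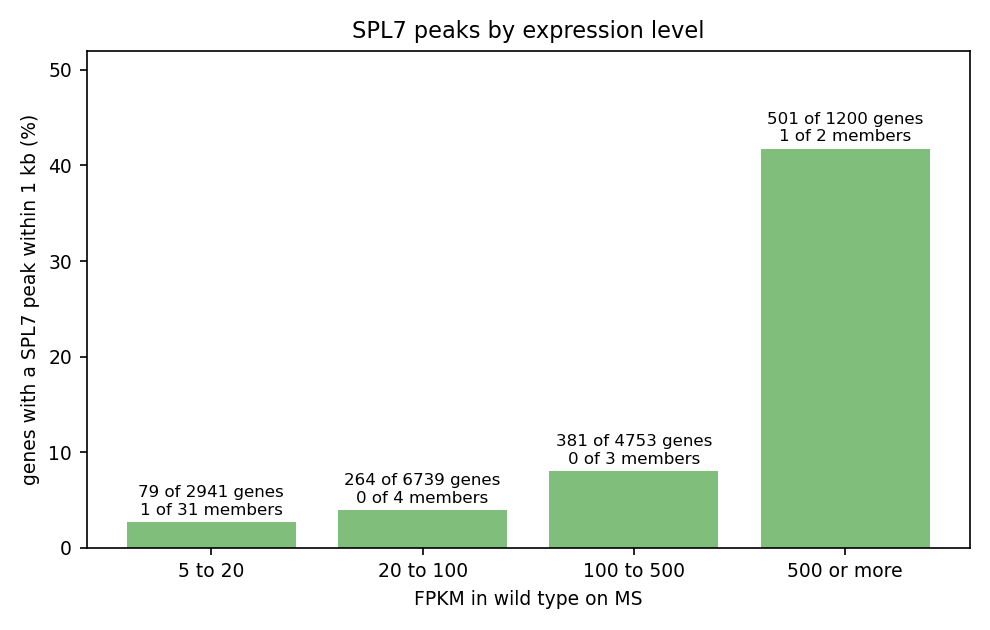
Percent of unshared genes with a SPL7 peak within 1 kb (y axis) by FPKM in wild type on MS (x axis), with the counts of genes and of members above each bar. The share runs from 2.69% to 41.8%, and the 2 members with a peak lie in the lowest and the highest class.

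Of the left-out copper genes, 3 of 10 had a peak within 1 kb, beside 7.84% of all unshared genes at 5 FPKM or more. Among these 3, FSD1 and CCH lay in the class from 500 FPKM upwards, where 41.8% of genes had a peak. FSD1 had 3 peaks with scores from 181 to 236, CCH had 1 with a score of 208 and AT2G47010 had 1 with a score of 283. The scores at CaS and AT2G24600 lay in the same range, but so did the median of 224 over all 1535 peaks. Nothing is therefore read from the shared range. ZIP2, COPT2, YSL3, FRO4, FRO5, AT1G71200 and UNE15 had none. The median distance from a member to the nearest peak was 22507 bp, beside 28953 bp over all unshared genes at 5 FPKM or more.

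Members were spread over the genome, with 10, 7, 6, 8 and 9 on chromosomes 1 to 5. Of the 80 entries next to a member, 45 were unshared and at 5 FPKM or more in wild type on MS, and 0 of these met the 1.5-fold rule (all genes 0.307%). By any ratio, 14 (31.1%) of these neighbours were highest in wild type on MS, beside 26.9% of all genes.

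The gene lists show how far the pattern reached into pathways. Of 9 unshared copper uptake and reduction genes at 5 FPKM or more, 5 were 1.5-fold above each of the other 3 libraries, all of them left-out copper genes, and 4 were not, among them COPT1 at 463 FPKM in MS-grown wild type and between 383 and 480 FPKM elsewhere. The list's median log2 ratio was 1.23 to wild type with copper, 1.19 to spl7 on MS and 1.51 to spl7 with copper, beside 0.00, 0.00 and 0.03 over all genes. Of all unshared genes at 5 FPKM or more in wild type on MS, 1.05% were 1.5-fold above wild type with copper, 3.22% above spl7 on MS and 2.96% above spl7 with copper, and 1.6%, 1.73% and 3.33% were 1.5-fold below them. Of 10 microRNA target genes, 0 were 1.5-fold above any of the other 3 libraries, 3 were 1.5-fold below wild type with copper, 5 below spl7 on MS and 3 below spl7 with copper. Of 17 iron deficiency genes, 2 were 1.5-fold above and 1 below wild type with copper, 4 above and 2 below spl7 on MS, and 7 above and 1 below spl7 with copper, and 0 were members. Among their matched genes, the sulfur deficiency, phosphate starvation, jasmonate, clock, cuticle, defence and zinc lists held 0 members as well.

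Markers of seed storage and late embryogenesis differed between the libraries in another order. The 10 unshared genes summed to 339 FPKM in wild type on MS, 701 FPKM in wild type with copper, 227 FPKM in spl7 on MS and 601 FPKM in spl7 with copper. Of the 9 at 5 FPKM or more, 8 were 1.5-fold below wild type with copper and 0 were highest in wild type on MS. SESA4 was listed at 0 in wild type on MS, SESA4 and CRU2 in spl7 on MS, and SESA4, CRU2 and SESA2 in spl7 with copper. Their part in the members' values was not tested.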

How the data were processed

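Gene-level values from 4 RNA-seq libraries were joined to the peaks of 1 ChIP-seq list. Reads were processed with CASAVA 1.8.2, and the deposited FPKM came from TopHat and Cufflinks on TAIR10, per the submitters' processing notes; per the series' design text the authors used uniquely mapped reads alone. The notes give neither TopHat's nor Cufflinks' version. The peak score is the authors' own, from reads mapped with Bowtie per the same notes; peak names are those of MACS, and no source states what the score measures.

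Ratios used FPKM with a pseudocount of 1. A peak was assigned to a gene when it shared 1 bp or more with the locus widened by 1 kb at both ends. Positions are 1-based, and the files give no strand. Of 27052 entries, 3373 share a locus and 26370 were matched to a locus code by code, symbol or unique synonym through RefSeq's TAIR10.1 table, used for names and gene order only; of 214 places on 17 gene lists, 199 were matched. Python 3.11.15, pandas 2.3.3 and matplotlib 3.10.9 were used, and the selection was checked on simulated data. These data had no noise and raised only genes of 20 FPKM or more, so the check covers the code and not the reliability of low members. The members and lists were chosen with earlier results of these data known. Named genes were members with a peak, the 10 largest ratios above 0, the 5 highest, the 5 highest at 0 elsewhere, those nearest the limit, left-out copper genes and list members; others were chosen after their values were seen. Promoter motifs had been planned and were not analysed here.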

Additional observations from a re-analysis of the deposited data

Results flagged for a closer look

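AT2G25625 was lower with copper in wild type (114 FPKM on MS, 4.90 FPKM with copper) and higher with copper in spl7 (2.77 FPKM on MS, 20.0 FPKM with copper), where the log2 ratio was 2.48. The copper difference thus had opposite directions in the genotypes. With 1 library per group this difference between them was not tested.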

How the results depend on the processing

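The number of genes was 40 and the number with a peak 2. With a pseudocount of 5 FPKM they were 22 and 1, with a minimum of 20 FPKM 9 and 1, with no minimum 100 and 4, at a ratio limit looser than 1.5-fold 176 and 6, and at 2-fold 10 and 0 (0%). The number with a peak was 1 with libraries rescaled to the same nuclear total (38 genes, 36 of the 40 among them), 4 with shared loci kept (54 genes, YSL2 at a smallest ratio of 19.5 and AT5G14550 at 3.48 among them), 1 at a flank of 0 bp, 5 at 3 kb and 1 with the higher-scoring peaks only. CaS had a peak under each of these settings but the 2-fold ratio, at which it was no member, and AT2G24600 was the gene lost in those with 1. The remaining planned settings left the number of genes between 29 and 48. With a pseudocount of 5 FPKM, 18 of the 40 fell short of 1.5-fold. The choice of low genes thus depends on the pseudocount and minimum, and depth is unknown. No paired analysis was possible because each group has 1 library.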
